A study of Mus musculus with 170 samples.

Results

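The mitochondrial ribosomal proteins described here are the 77 gene rows whose symbol begins with Mrpl or Mrps and a digit, 48 of the large subunit (Mrpl) and 29 of the small subunit (Mrps), of 40549 rows in all. Their 4 rows named as pseudogenes (-ps) were left out. Mitochondria keep a ribosome of their own, built on RNA from the mitochondrial genome and on proteins that nuclear genes encode, which cells make in the cytosol and import. It translates the few membrane subunits of the respiratory chain and of ATP synthase that the mitochondrial genome still encodes, in a 2-subunit particle in which some proteins have bacterial counterparts and others are found only in mitochondria. Embryonic heart muscle fills with mitochondria as it begins to contract, and inherited defects of several of these proteins are known to cause cardiomyopathy. The questions were how these genes differ between hearts with and without Dgcr8, and between the classes of cells of the control heart.

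The cells came from the ventricular part of C57BL/6 mouse hearts at embryonic day 9.5 and were picked by hand, each giving 1 full-length cDNA library (Smart-seq2). Control hearts are labelled wild type, and the study's methods describe floxed Dgcr8 alleles with a membrane reporter at Rosa26 and no Cre. The conditional knockouts (cKO) are labelled Mesp1Cre/+; Dgcr8-/-, so Dgcr8, which is needed to process most microRNA precursors, was deleted in the progeny of Mesp1-expressing cells, which form most of the heart, and both genotypes carried the reporter. There were 74 control cells (35 of batch 1 and 39 of batch 2) and 69 cKO cells (35 and 34). The labels name no embryo, so each genotype counts as 1 sample, cells are not replicates, and no test or p-value is given. Differences are reported pooled and within each batch, and the SD is over cells.

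Clustering on 55 marker genes gave 96 cardiomyocyte-like (CM-like) cells, 67 cKO (33 and 34 by batch) and 29 control (19 and 10), in which all 15 cardiomyocyte markers stood out. Of the other control cells, 22 were endothelial-like, 13 epicardial-like and 3 erythroid-like, while a cluster of 9 cells (7 control, 2 cKO) whose leading genes were mitochondrial transcripts stayed unnamed. In the epicardial-like cluster 6 of 6 epicardial but also 9 of 14 mesenchymal markers stood out, with 3 of each among its 10 leading genes. That class may thus hold mesenchymal cells too. No cKO cell was endothelial-like or epicardial-like, so the genotypes were compared in CM-like cells. Summed cardiomyocyte markers had a median of 65476 TPM (a gene's share of all transcripts of a cell, scaled by length) in control and 90679 in cKO CM-like cells. The 13 endothelial markers summed to 2.99 to 271 TPM in control and 2.76 to 412 in cKO CM-like cells (medians 18.3 and 52.8), with 8 and 9 of them at 0 in the median cell. The 7 erythroid markers were all at 0 in the median cell of both genotypes, but 2 control CM-like cells held over 1000 TPM of them. Without those 2 cells the median differences given below were -1.11 for the large and -0.69 for the small subunit. Mitochondrial genome transcripts had a median of 6.30% of TPM in control and 3.00% in cKO CM-like cells. The part of these levels in the results was not tested, except where values without such cells are given.

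Dgcr8 itself was above 0 in 19 of 29 control CM-like cells (65.5%, exact 95% interval 45.7 to 82.1) and in 32 of 67 cKO cells (47.8%, 35.4 to 60.3), intervals that cover counting error only. Its mean log2(TPM + 1) differed by -0.95 (cKO minus control), by -0.20 in batch 1 and -1.72 in batch 2. The row takes reads from the whole gene, deleted or not, so it checks the genotype label only in part. Xist, transcribed from the X chromosome that is silenced in female cells, reached TPM 1 in 64 of 67 cKO and 0 of 29 control CM-like cells (upper limit 10.3%). The Y-linked Ddx3y did so in 19 of 29 control and 0 of 67 cKO cells (upper limit 4.48%), limits set by 3 cells. Genotype and sex of the embryos therefore cannot be told apart; no member lies on the X or Y chromosome.

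In control CM-like cells the mitochondrial ribosomal protein genes were detected in most cells, and all 77 passed both filters on low values. The median member of the large subunit was at TPM 1 or more in 93.1% of the 29 cells and of the small subunit in 89.7%, against 72.4% for the 6632 genes that reached TPM 1 in at least 50% of the cells of either genotype. TPM is scaled by transcript length, so levels were ranked, but a remaining effect of length was not tested. The longest coding transcripts had 478 to 1316 bases in the highest members named below and 1424 to 4278 bases in the lowest. Mrpl42, a large subunit protein found only in mitochondria, led the large subunit at a mean log2(TPM + 1) of 9.49 ± 1.40 (SD, n = 29 cells). It was followed by Mrpl12, the protein of the stalk that recruits translation factors, at 8.26 ± 0.70, and by Mrpl33, a small protein with a bacterial counterpart, at 8.13 ± 0.95. These last 2 levels lay within 1 SD of each other. The lowest were Mrpl44 (2.61 ± 2.80), a protein with a ribonuclease III fold, Mrpl1 (3.10 ± 2.16), of the stalk beside the exit site for transfer RNA, and Mrpl35 (3.64 ± 2.06). In the small subunit Mrps21 was highest (8.50 ± 0.70), then Mrps36 (7.99 ± 1.63) and Mrps33 (7.23 ± 1.95), and Mrps2 (2.86 ± 2.46), Mrps31 (3.71 ± 2.62) and Mrps26 (4.08 ± 2.67) were lowest. Mrpl12, Mrpl33 and Mrps21 were above 0 in all 29 cells and varied little, with SDs under 1, while low members were at 0 in some cells and high in others.

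Most mitochondrial ribosomal protein genes were lower in cKO than in control CM-like cells. Large subunit members had a median difference of -1.20 log2 units (-0.51 in batch 1 and -1.78 in batch 2) and small subunit members of -0.77 (0.05 and -1.81). Over the 15150 genes tested, those above 0 in more than 10 of the cells compared, the median was 0.03 (0.17 and -0.22). In the large subunit 38 of 48 members were lower in both batches and 1, Mrpl17, was higher in both, where 26% of all genes tested were lower in both and 28.6% higher in both. At least 1 log2 unit lower in the pooled cells were 30 of 48 large subunit members, against 6.91% of all genes, and 1 was that much higher, against 6.6%. In the small subunit 14 of 29 were lower in both batches and 0 higher in both, and 13 were at least 1 log2 unit lower and 0 that much higher. Of the 6632 genes at TPM 1 in 50% of the cells of either genotype, 32.1% were lower in both batches and 13.6% at least 1 log2 unit lower. Their median difference was -0.01 (0.35 in batch 1 and -0.60 in batch 2). All 77 members belonged to that set, but its median control level of 3.41 lay below those of the large (5.68) and small (5.58) subunit. The subunits differed mainly in batch 1, where 38 of 48 large but 14 of 29 small subunit members were lower, against 34.1% of all genes tested. In batch 2 it was 47 of 48 and 29 of 29, against 63.3%. Counts of large differences depended on the scale: by log2 of the mean TPM (plus 1) in place of the mean of log2(TPM + 1), 9 large and 1 small subunit members were at least 1 log2 unit lower, against 5.5% of all genes.

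**Figure D1:**
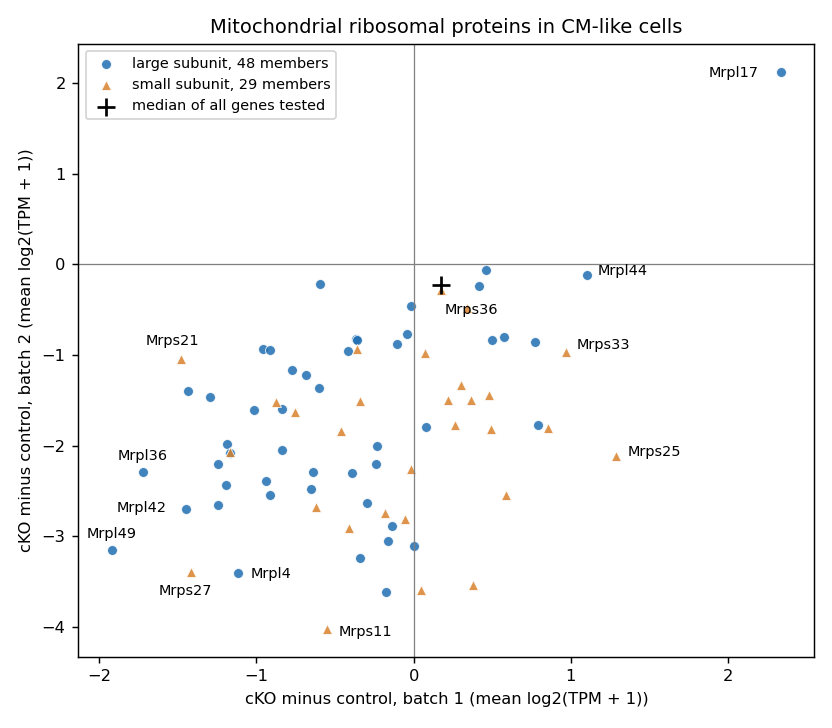
Difference of the mean log2(TPM + 1), cKO minus control CM-like cells, in batch 1 (horizontal) and batch 2 (vertical), 1 point per member, with large subunit members as circles and small subunit members as triangles. Mrpl17 is alone in the upper right, 38 large and 14 small subunit members lie in the lower left, and the small subunit is spread around 0 in batch 1.

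The batches also differed in the number of genes detected per cell (TPM above 0), which moved with the size of the difference. Its median was 8458 in control and 9845 in cKO CM-like cells of batch 1, but 9679 and 7765 in batch 2, where the members were lowest in cKO. Across control CM-like cells the mean log2(TPM + 1) of the large subunit followed the number of detected genes with a Pearson r of 0.78 (Spearman 0.72, n = 29 cells), and that of the small subunit with 0.79 (0.88). Both subunits followed each other with 0.91 (0.85) in control and 0.87 (0.81) in 67 cKO cells, in libraries that share depth and scaling. Among cells with 8000 to 10000 detected genes (10 and 7 control, 16 and 12 cKO by batch) the median differences were -1.18 for the large and -0.73 for the small subunit, with 36 of 48 and 18 of 29 members lower in both batches. The median and share over all genes were not computed for these cells, so the counts have no background beside them. In batch 2 the median large subunit member was at TPM 1 in 90% of control and 72.1% of cKO cells. For the median small subunit member the shares were 90% and 70.6%. The median of the 6632 genes described above also went from 90% to 70.6%. In batch 2 the members thus did not stand apart from those genes. From control to cKO cells of batch 1, the median large subunit member went from 89.5% to 87.9%. The median small subunit member rose there from 84.2% to 87.9%, and the 6632 genes from 68.4% to 75.8%. Pooled over batches, the large subunit fell from 93.1% to 81.3% and the small subunit from 89.7% to 80.6%. The pooled median of the 6632 genes was nearly level (72.4% and 71.6%), so the pooled fall was larger in the members. Counting only cells in which a member was at TPM 1 or more, the median difference was -0.60 for the large subunit (-0.42 and -0.81 by batch, 44 of 48 lower pooled) and -0.19 for the small subunit (0.12 and -0.66, 20 of 29 lower). Over 6628 of those 6632 genes, which had such a value, the same measure had a median of 0.14, with 2708 of 6628 lower pooled. By batch its median was 0.17 over 6627 genes and 0.03 over 6618.

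**Figure D2:**
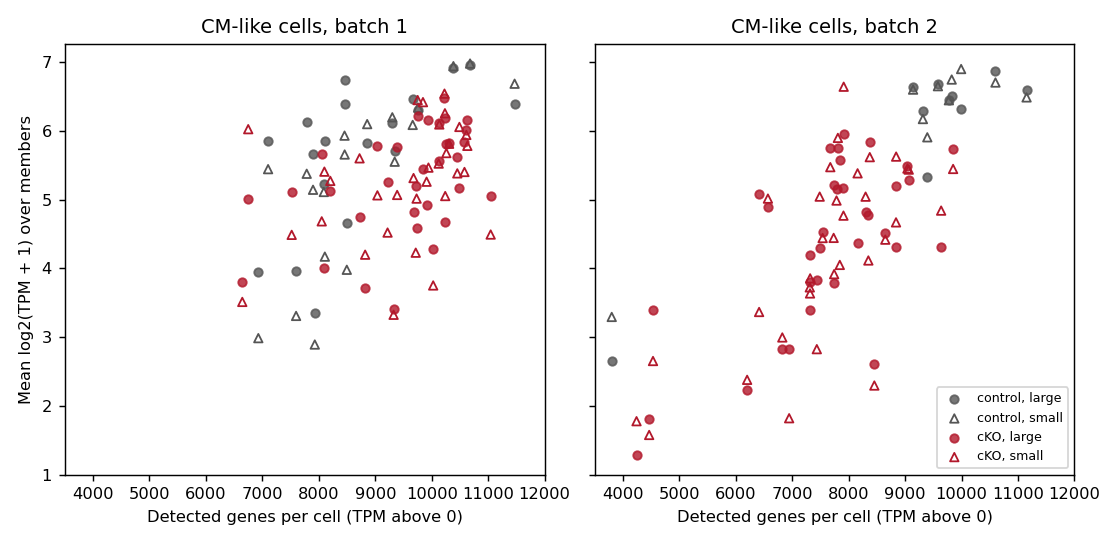
Mean log2(TPM + 1) over the large (filled circles) and small (open triangles) subunit members in each CM-like cell against its number of detected genes, control in grey and cKO in red, batch 1 left and batch 2 right. The genotypes overlap in both batches, with median numbers of detected genes of 8458 in control and 9845 in cKO cells of batch 1, and of 9679 and 7765 in batch 2.

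Among large subunit members the largest differences below control with the same sign in both batches were those of Mrpl49, Mrpl4, Mrpl42, Mrpl36 and Mrpl41; coordinates are of GRCm38 with GENCODE M21. Mrpl49, a protein found only in mitochondria (chr19:6053622-6057785, minus strand), had a lowest, median and highest TPM of 0, 53.8 and 308 in control and 0, 16.4 and 212 in cKO cells of batch 1. In batch 2 these were 37.3, 59.9 and 97.2 in control and 0, 5.26 and 135 in cKO cells. The genotypes overlapped, but 53 of 67 cKO cells lay below the control median, and the difference was -2.41 log2 units (-1.92 in batch 1 and -3.16 in batch 2). The row of Mrpl49 overlaps that of Syvn1. Mrpl42 (chr10:95480805-95501940, minus strand) had 9.48, 977 and 2324 TPM in control and 2.56, 349 and 866 in cKO cells of batch 1. In batch 2 it had 396, 737 and 1129.8 in control and 0, 221 and 777 in cKO cells. Here 66 of 67 cKO cells lay below the control median and 27 of 29 control cells above the cKO median, with a difference of -2.11 (-1.45 in batch 1 and -2.70 in batch 2). Mrpl42 has a near-identical copy, Gm6419, in the table, with which reads could be shared.

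Mrpl4, a protein shared by ribosomes of all kinds (chr9:21002738-21008839, plus strand), had a lowest, median and highest TPM of 0, 166 and 486 in control and 0, 67.2 and 373 in cKO cells, a difference of -2.12 (-1.12 in batch 1 and -3.40 in batch 2). Mrpl36, the smallest protein of the bacterial type of large subunit (chr13:73328513-73332178, plus strand), had 1.06, 183 and 679.7 TPM in control and 0, 81.1 and 565 in cKO cells, a difference of -2.03 (-1.72 in batch 1 and -2.30 in batch 2). Its start lies 29 bases from that of Ndufs6, a complex I subunit on the other strand, and the gene rows overlap. Mrpl41, found only in mitochondria (chr2:24974117-24975098, minus strand), had 0, 108 and 356 TPM in control and 0, 41.9 and 231 in cKO cells, a difference of -2.01 (-1.24 in batch 1 and -2.65 in batch 2). For all 3 most cKO cells lay below the control median, 56, 53 and 52 of 67, while the highest cKO cells reached the upper part of the control range. Of the members with the highest control levels, Mrpl12 was at 345 median TPM in control and 146 in cKO cells (-1.75; -1.24 in batch 1 and -2.20 in batch 2) and Mrpl33 at 309.9 and 166 (-1.41; -1.01 in batch 1 and -1.61 in batch 2). The 3 lowest members of the control did not share this direction, with 0.02 for Mrpl1, 0.06 for Mrpl35 and 0.64 for Mrpl44, each positive in batch 1 and negative in batch 2. Highest and lowest members were picked by the control level that also enters the difference, so a dependence on level cannot be read from them. Mrpl44 was at TPM 1 or more in 48.3% of control CM-like cells.

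Mrpl17, which sits near the exit of the peptide tunnel and has a bacterial counterpart (chr7:105803206-105811099, minus strand, 2 exons), went the other way. In batch 1 its lowest, median and highest TPM were 0, 92.9 and 433 in control and 1.32, 313 and 982 in cKO cells. In batch 2 they were 0, 75.2 and 416 in control and 0, 273 and 904 in cKO cells. The difference was 2.24 log2 units, nearly alike in both batches (2.34 in batch 1 and 2.12 in batch 2), and 56 of 67 cKO cells lay above the control median while 3 of 29 control cells lay above the cKO median. It was above 0 in 25 of 29 control and 65 of 67 cKO cells, and among cells at TPM 1 or more the difference was 1.64. No other gene row overlaps Mrpl17, and no near-identical copy of its transcripts was found.

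In the small subunit the largest differences below control with the same sign in both batches were those of Mrps27, Mrps11, Mrps24, Mrps18a and Mrps18c. Mrps27, a mitochondrial protein of the pentatricopeptide repeat type (chr13:99344786-99415562, plus strand), had a lowest, median and highest TPM of 0, 66.8 and 237 in control and 0, 0.540 and 375 in cKO cells. It was above 0 in 25 of 29 control and 45 of 67 cKO cells, with a difference of -2.19 (-1.41 in batch 1 and -3.39 in batch 2), and its row overlaps that of 6430562O15Rik. Mrps11, of the platform that contacts messenger RNA (chr7:78783119-78792989, plus strand), had 0, 63.3 and 258 TPM in control and 0, 0.953 and 446 in cKO cells, a difference of -2.05 that rested mostly on batch 2 (-0.55 in batch 1 and -4.02 in batch 2). Mrps11 and Mrpl46 of the large subunit (-1.75; -0.94 in batch 1 and -2.39 in batch 2) start from opposite strands 412 bases apart and their rows overlap. Both were at TPM 1 or more in 20 of 29 control and 25 of 67 cKO cells, and neither was in 1 and 13 cells. Mrps24, of the messenger RNA entry site, had 0, 151 and 392 TPM in control and 0, 63.7 and 517 in cKO cells (-1.62; -0.62 in batch 1 and -2.67 in batch 2). Mrps18a differed by -1.54 (-0.41 in batch 1 and -2.91 in batch 2) and Mrps18c by -1.51 (-1.17 in batch 1 and -2.07 in batch 2). Mrps21, the highest small subunit member, was at 389 median TPM in control and 192 in cKO cells, with 56 of 67 cKO cells below the control median (-1.31; -1.48 in batch 1 and -1.05 in batch 2). It was the only one of the 29 small subunit members with a more negative difference in batch 1 than in batch 2. Mrps21 has a near-identical copy, Gm6181, in the table, with which reads could be shared.

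Mrps30 and Mrps18a are named for the small subunit but sit in the large one, and Mrps36 is now assigned to the 2-oxoglutarate dehydrogenase complex of the citric acid cycle. Mrps30 differed by -0.42 (0.36 in batch 1 and -1.50 in batch 2). Mrps36 (chr13:100735955-100744659, minus strand) was nearly level between the genotypes, with a lowest, median and highest TPM of 2.38, 299 and 1654 in control and 2.05, 285 and 859 in cKO cells (-0.07; 0.17 in batch 1 and -0.29 in batch 2). Mrps33 had a small pooled difference of 0.12, but with opposite signs in the batches (0.97 in batch 1 and -0.97 in batch 2). Of the other lowest members, Mrps2 differed by -0.46 (0.30 in batch 1 and -1.33 in batch 2), Mrps31 by -0.47 (0.49 in batch 1 and -1.82 in batch 2) and Mrps26 by -1.15 (-0.05 in batch 1 and -2.80 in batch 2). With proteins placed by structure, 50 large subunit members had a median of -1.20 and 26 small subunit members of -0.87.

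The members lie on 17 chromosomes, with 10 of them on chromosome 11. Of the 77, 33 (42.9%) start within 1000 bases of the start of a protein-coding gene on the opposite strand, against 10.9% of 21938 protein-coding genes. That background includes genes not detected in these cells, and the share among the genes tested was not computed. Mrpl49 starts 59 bases from Fau, a cytosolic ribosomal protein gene, and Mrps27 starts 81 bases from Ptcd2. RefSeq promoters (GRCm38.p6, 250 bases before to 50 after the start) were held for 68 members, 74 in all. They were searched on both strands for 3 words known from promoters of mitochondrial genes, GCGCATGC (NRF1), CCGGAAG (ETS factors such as GABPA) and AAGATGGC (YY1), counting each promoter once per word. The NRF1 word was in 10.8% of the members' promoters, against 4.96% for the genes tested and 2.71% of all 32851 promoters. The ETS word was in 33.8% (16.2% and 8.86%) and the YY1 word in 16.2% (4.13% and 2.75%). Any of the 3 was in 50% (23.2% and 13.3%). The NRF1 word was in 7 of 47 large (14.9%) and 1 of 27 small subunit promoters (3.70%), so above the genes tested in the large subunit only. The ETS word was in 29.8% of large and 40.7% of small subunit promoters, and the YY1 word in 12.8% and 22.2%. The 37 members with at least 1 word had a median difference of -1.33 between the genotypes (-0.55 and -2.08 by batch) and the 31 with none one of -0.55 (0.08 and -1.44). The same split was not made over all genes tested. A match is a run of letters and no measured site.

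The promoters of the member that was higher in cKO CM-like cells and of 3 of those furthest below control are given to show what they hold, from 5' to 3' on the strand of the gene, with the searched words on either strand in capitals. That of Mrpl17 (chr7:105811038-105811337, minus strand) holds the ETS and the NRF1 word, those of Mrpl42 (chr10:95501900-95502199, minus strand) and Mrpl49 (chr19:6057706-6058005, minus strand) the YY1 word, and that of Mrps27 (chr13:99344536-99344835, plus strand) the ETS word, on the opposite strand, and the YY1 word. The promoter of Mrps36, level between the genotypes, holds none of the words. Among other named members, that of Mrpl36 (-2.03) holds the YY1 word and that of Mrpl41 (-2.01) none. The promoters of Mrpl35 (0.06 pooled) and Mrps33 (0.12 pooled) hold the YY1 and the ETS word.
Mrpl17: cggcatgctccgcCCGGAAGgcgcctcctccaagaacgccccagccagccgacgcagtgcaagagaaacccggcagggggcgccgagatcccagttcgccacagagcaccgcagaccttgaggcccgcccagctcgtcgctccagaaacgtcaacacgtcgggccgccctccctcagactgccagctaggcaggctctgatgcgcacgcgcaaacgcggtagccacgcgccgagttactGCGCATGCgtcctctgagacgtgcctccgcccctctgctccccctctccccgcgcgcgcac
Mrpl42: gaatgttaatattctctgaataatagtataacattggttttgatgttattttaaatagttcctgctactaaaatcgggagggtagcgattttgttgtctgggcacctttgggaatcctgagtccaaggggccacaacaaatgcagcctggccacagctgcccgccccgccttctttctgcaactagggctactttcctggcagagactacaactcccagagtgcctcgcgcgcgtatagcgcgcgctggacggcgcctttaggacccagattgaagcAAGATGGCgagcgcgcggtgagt
Mrpl49: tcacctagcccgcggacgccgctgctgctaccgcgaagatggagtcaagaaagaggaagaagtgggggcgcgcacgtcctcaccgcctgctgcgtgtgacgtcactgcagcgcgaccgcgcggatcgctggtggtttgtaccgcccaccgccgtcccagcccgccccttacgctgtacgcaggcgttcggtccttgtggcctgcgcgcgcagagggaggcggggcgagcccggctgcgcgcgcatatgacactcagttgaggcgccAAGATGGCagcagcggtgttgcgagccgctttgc
Mrps27: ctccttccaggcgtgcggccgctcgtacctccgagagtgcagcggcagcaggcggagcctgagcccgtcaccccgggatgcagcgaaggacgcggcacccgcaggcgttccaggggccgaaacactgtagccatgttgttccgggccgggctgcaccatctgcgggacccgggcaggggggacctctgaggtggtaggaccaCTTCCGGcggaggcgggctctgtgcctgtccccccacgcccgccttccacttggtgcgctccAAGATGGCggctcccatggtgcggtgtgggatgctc

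Summed over members, the RNA of both subunits was lower in cKO CM-like cells in each batch. Large subunit members took 7498 ± 2159.6 TPM per cell (SD, n = 19 cells) in control and 5146 ± 1376 (n = 33) in cKO cells of batch 1. In batch 2 they took 6470.2 ± 1261 (n = 10) and 3913 ± 1234 (n = 34). The mean was thus 31.4% lower in batch 1 and 39.5% lower in batch 2, and 31 of 33 and 34 of 34 cKO cells lay below the control median of their batch. In batch 2, 24 of the 34 cKO cells lay below every control cell, and 0 of 33 did in batch 1. Small subunit members took 3699 ± 1136 TPM in control and 3136 ± 887 in cKO cells of batch 1, and 3613 ± 506 and 2377 ± 587 in batch 2, 15.2% and 34.2% lower. The sums followed the number of detected genes with a Pearson r of 0.11 for both subunits (Spearman 0.02 and 0.13) in 29 control and of 0.26 and 0.30 (0.27 and 0.30) in 67 cKO cells. In the 10 control cells of batch 2 it was 0.55 for the large (0.38) and 0.04 for the small subunit (0.38), and in the 34 cKO cells 0.06 (0.16) and 0.29 (0.21). The large subunit sum exceeded the small subunit sum by a mean factor of 1.98 ± 0.50 in control and 1.68 ± 0.42 in cKO cells, a difference within 1 SD. TPM is a share of a cell's RNA, so less of these transcripts and more of others cannot be told apart.

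**Figure D3:**
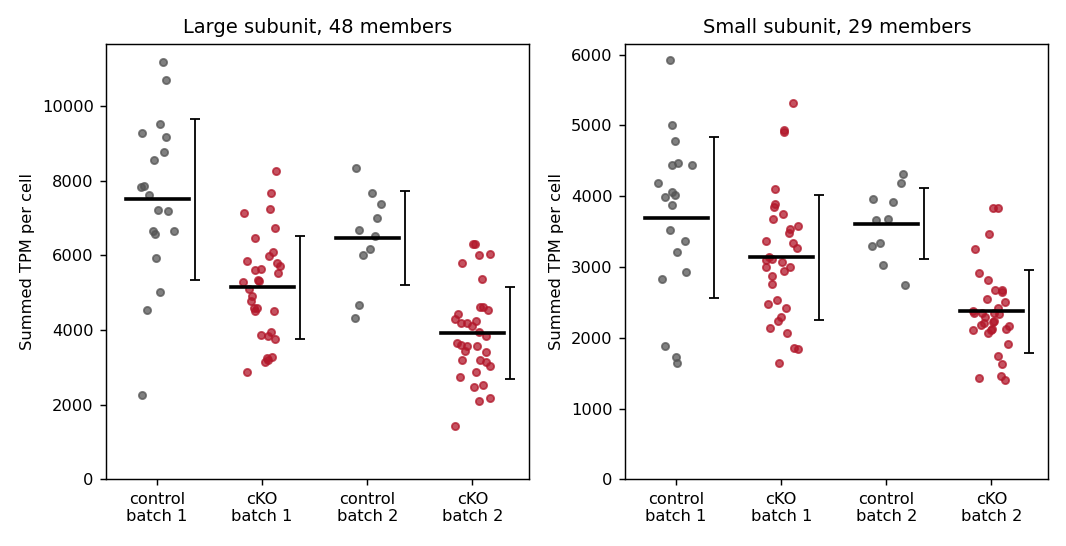
Summed TPM of the 48 large (left) and 29 small (right) subunit members in each CM-like cell by genotype and batch; bars mark the mean and the lines beside them 1 SD over cells. In batch 2 the 34 cKO cells lie below the control median for the large subunit, and 32 of 34 do for the small subunit.

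Split by origin, large subunit members without a bacterial counterpart had a median difference of -1.37 (-0.71 and -2.04) over 18 members, and those with one of -1.05 (-0.38 and -1.50) over 30, batch 1 and batch 2 in brackets. In the small subunit the order was the other way, -0.47 (0.17 and -1.82) over 13 without and -1.13 (-0.27 and -1.70) over 16 with a bacterial counterpart, but in batch 2 alone the 2 groups were close.

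The other lists of mitochondrial translation also had medians below 0 in cKO CM-like cells. Their counts stand beside 26% of all genes lower and 28.6% higher in both batches. Of 6 mitoribosomal proteins with other symbols with a median of -0.64 (-0.09 and -1.16), 3 were lower in both batches, among them Gadd45gip1, of the large subunit (-0.90; -0.34 in batch 1 and -1.56 in batch 2), and 0 higher. Of 25 assembly factors with a median of -0.59 (-0.08 and -1.54), 15 were lower in both batches, led by the GTPase Gtpbp10 (-1.90; -1.56 in batch 1 and -2.46 in batch 2), and 1 was higher, Mterf4 (0.80; 1.21 in batch 1 and 0.33 in batch 2), which acts with the methyltransferase Nsun4. Of 14 translation factors with a median of -0.33 (0.12 and -1.52), 5 were lower in both, with the elongation factor Gfm1 lowest (-1.96; -1.46 in batch 1 and -2.65 in batch 2), and 2 higher, led by the initiation factor Mtif3 (0.52; 0.61 in batch 1 and 0.46 in batch 2). Of 20 genes for charging mitochondrial transfer RNA with a median of -0.67 (-0.30 and -1.26), 11 were lower in both and 1, Qrsl1, was higher in both by 0.06 and 0.09 but lower pooled. Of 13 genes of mitochondrial DNA transcription and its regulators with a median of -0.55 (0.08 and -1.29), 5 were lower in both, led by Mterf2 (-1.54; -0.85 in batch 1 and -2.51 in batch 2), and 3 higher, led by the coactivator Ppargc1b (1.07; 0.98 in batch 1 and 1.28 in batch 2). For comparison, 85 cytosolic ribosomal protein genes had a median of -0.57 (-0.26 and -0.87) and 36 complex I subunits one of -0.46 (-0.14 and -0.79). Lower in both batches were 73 of the 85 and 22 of the 36, beside 38 of 48 large and 14 of 29 small subunit members. In each comparison list 0 were higher in both. At least 1 log2 unit lower were 7 and 3, beside 30 large and 13 small subunit members, against 6.91% of all genes.

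**Figure D4:**
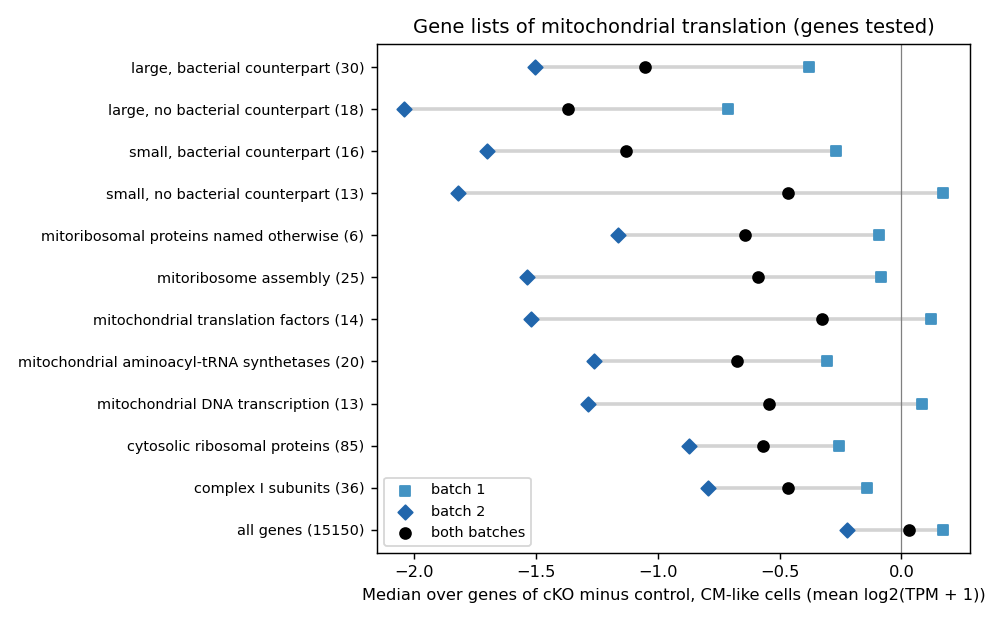
Median over genes of the difference cKO minus control in CM-like cells for members by subunit and origin, other lists of mitochondrial translation, 2 comparison lists and all genes tested, with the number of genes in brackets; circles are pooled cells, squares batch 1 and diamonds batch 2. Each of the 12 medians is lower in batch 2 than in batch 1.

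Among control cells the summed RNA of mitochondrial ribosomal proteins had its highest median in CM-like cells, by little over epicardial-like cells in batch 1. All 77 members together took a lowest, median and highest of 3908, 10947 and 17096 TPM in 29 CM-like, 5403, 8257 and 11186 in 13 epicardial-like, 6662, 7734 and 9202 in 3 erythroid-like and 4872, 6704 and 10461 in 22 endothelial-like cells. The ranges of all 4 classes overlapped. In batch 1 the median was 11148 in CM-like, 10941 in epicardial-like (4 cells) and 9463 in endothelial-like cells. In batch 2 it was 10396, 7876 and 6125. Large subunit members took 7498 TPM in CM-like against 6016 in endothelial-like cells of batch 1, and 6470.2 against 4034 in batch 2, as means. On the mean log2(TPM + 1) the batches disagreed. The median difference, CM-like minus endothelial-like, was 0.63 for the large (-0.16 and 1.11) and 0.61 for the small subunit (-0.37 and 1.53), against -0.26 (-0.51 and 0.03) over 13316 genes. In batch 1 the median number of detected genes was 8458 in CM-like and 10293 in endothelial-like cells, and in batch 2 it was 9679 and 8538. Of the members, 21 of 48 and 8 of 29 were higher in CM-like cells in both batches, against 19.9% of all genes, and 4 and 3 were lower in both, against 40.7%. At least 1 log2 unit higher were 17 and 12, against 9.21% of all genes. Against epicardial-like cells the batches had opposite signs, with medians of -0.34 and 0.50 for the large (0.12 pooled) and -0.69 and 0.77 for the small subunit (0.14 pooled).

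Single members stood further apart between the classes. Mrps36 had a lowest, median and highest TPM of 2.38, 299 and 1654 in CM-like and 0, 40 and 309 in endothelial-like cells (3.66; 2.60 in batch 1 and 4.13 in batch 2), with epicardial-like cells between them at 15.1, 177 and 205. The small subunit members Mrps35 (2.22; 1.24 in batch 1 and 2.83 in batch 2) and Mrps31 (2.18; 0.81 in batch 1 and 3.48 in batch 2) followed. Mrps31 was above 0 in 23 of 29 CM-like and 6 of 22 endothelial-like cells. In the large subunit Mrpl36 (2.27; 1.20 in batch 1 and 2.70 in batch 2), Mrpl47 (2.09; 1.44 in batch 1 and 2.65 in batch 2) and Mrpl41 (1.93; 0.38 in batch 1 and 2.51 in batch 2) were furthest above endothelial-like cells. Higher in endothelial-like cells were Mrpl17 (-2.46; -3.83 in batch 1 and -1.79 in batch 2), Mrpl20 (-1.31; -1.16 in batch 1 and -1.76 in batch 2) and Mrpl14 (-0.84; -1.10 in batch 1 and -0.66 in batch 2) of the large, and Mrps16 (-1.32; -2.54 in batch 1 and -0.25 in batch 2), Mrps10 (-0.33; -0.37 in batch 1 and -0.04 in batch 2) and Mrps28 (-0.28; -0.63 in batch 1 and -0.05 in batch 2) of the small subunit. For Mrpl14, Mrps10 and Mrps28 this direction turned when mean TPM was compared in place of the mean log2(TPM + 1). Mrpl17 had a lowest, median and highest TPM of 0, 84.9 and 433 in control CM-like cells, 0, 279 and 866 in endothelial-like and 118, 338 and 706 in epicardial-like cells, and its 7.43 mean log2(TPM + 1) in cKO CM-like cells stood beside 7.65 in endothelial-like, 8.19 in epicardial-like and 5.19 in control CM-like cells. For Mrpl42 these 4 levels were 7.38, 7.64, 8.33 and 9.49. Both comparisons use the same control CM-like cells.

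**Figure D5:**
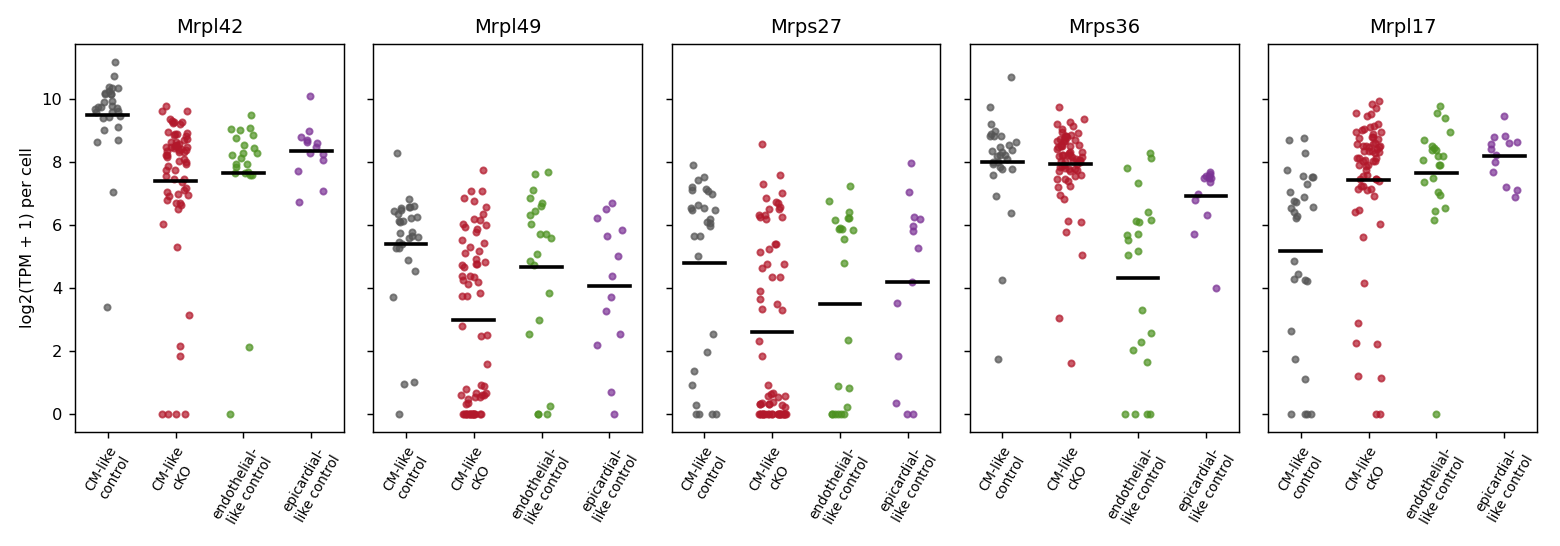
log2(TPM + 1) of 5 members in each control CM-like, cKO CM-like, control endothelial-like and control epicardial-like cell; bars mark the mean. Mrpl42 is highest in control CM-like cells, Mrpl49 and Mrps27 have many cKO cells at or near 0, Mrps36 is level between the genotypes and lower in endothelial-like cells, and Mrpl17 is lowest in control CM-like cells.

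Reads of overlapping rows or copies could be split by the authors' counting. Of the 77 members, 28 overlap another gene's row and 6 have a near-identical copy (95% identity over at least 50% of the transcript), of which 4 have a copy with a row of its own in the table. Over the 28 large and 18 small subunit members with no overlapping row and no copy row, 22 and 7 were lower in both batches and 19 and 6 at least 1 log2 unit lower. Among all genes tested, with or without such rows, 26% were lower in both batches and 6.91% at least 1 log2 unit lower. Among the 6632 genes at TPM 1 in at least 50% of the cells of either genotype, the shares were 32.1% and 13.6%. Mrpl23 shares its symbol with the row Mrpl23-ps1, which had a mean of 398 TPM in control and 272 in cKO CM-like cells, while Mrpl23 itself had 69 and 49.1, so the level of Mrpl23 is uncertain.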

How the data were processed

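Single ventricular cells of control and cKO hearts at embryonic day 9.5 were sequenced by the authors as paired-end Smart-seq2 libraries and quantified with Salmon against mm10, per the study's methods and the submitters' processing notes (the Salmon version is not given in the sources used here). The deposited table holds TPM per gene and cell, which the authors normalized for transcript length and to 1 fixed total per cell; TPM sums were 996133 to 999999. TPM keeps no read depth, so the depth per cell is unknown and the number of genes above TPM 0 was used beside it. The study kept cells with a high mapping rate. Of 170 labelled samples, 143 had a column and 27 were not analysed here; 0 columns were left unused and 0 pairs of columns were identical.

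Cells were grouped by the genotype and batch in their labels, and clustered by hierarchical clustering of log2(TPM + 1) of 55 marker genes into 5 clusters, named by at least 3 detected markers. No doublet caller was run, since cells were picked singly. Differences are those of the mean of log2(TPM + 1) over cells, for genes above 0 in more than 10 of the cells compared, computed over the whole table and printed for the members. This scale understates differences of low genes. A difference of 1 log2 unit was the limit for counts. Since each genotype is 1 sample, no test was made; shares carry exact Clopper-Pearson 95% intervals, and a share of 0 the limit of 3 cells, for counting error only. For each subunit the genes named are the 5 furthest below and up to 3 above control, the 3 furthest apart between classes in each direction (all with the same sign in both batches), the 3 highest and the 3 lowest in control, Mrps30, Mrps18a and Mrps36, and the extremes of each other list of mitochondrial translation. A gene that this rule names is not reported here. Mrpl46, Mrpl23 and Qrsl1 were added after their values were seen. The members, lists and rules were chosen with earlier results of these data known. Scripts were tested on simulated tables and ran in Python 3.11.15 with pandas 2.3.3, numpy 2.4.6 and scipy 1.17.1. Gene positions are from GENCODE M21 and promoters from RefSeq, both on GRCm38; all 77 members matched GENCODE.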

Additional observations from a re-analysis of the deposited data

Results flagged for a closer look

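The row Mrpl48-ps, a pseudogene row that is no member and enters no comparison, was at TPM 1 or more in 23 of 67 cKO CM-like cells (14 of batch 1 and 9 of batch 2) and in 0 of 29 control CM-like cells (upper limit of the share 10.3%). It drew attention as a signal above the control level in data outside the comparisons. No control cell of any class reached TPM 1, and the highest cKO cell had 20.1 TPM. Mrpl48 itself, a large subunit gene, had a mean of 113 TPM in control and 70 in cKO CM-like cells. Reads shared between the row and its parent were not tested.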

How the results depend on the processing

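No paired analysis was possible because title numbers mark single cells and no result comes from a test. Each alternative below changes 1 choice, and its cause was not tested. Over all of them the median difference of the members between genotypes ran from -1.78 to -0.50 for the large and from -1.81 to 0.05 for the small subunit, and was positive only for the small subunit in batch 1 alone.

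Members at least 1 log2 unit lower numbered 13 large and 6 small with a pseudocount of 10, and 9 and 1 by log2 of the mean TPM (plus 1), the last against 5.5% of all genes. With the pseudocount, the clusters or the cells changed, the share of all genes past 1 log2 unit was not computed. Whether the members exceed it under those settings is therefore not known. With 4 clusters they were 8 and 3, in batch 1 alone 12 and 3, over all cells without clustering 8 and 6, and in batch 2 alone 24 small. Members at least 1 log2 unit higher numbered 2 large in batch 1 alone, over all cells and among cells with 8000 to 10000 detected genes, and 1 small with 4 clusters, in batch 1 alone and over all cells. Lower in both batches were 24 large and 8 small members with 4 clusters, where the share of all genes was not computed. In batch 2 alone 29 small members were lower, against 63.3% of the 15150 genes tested. Of the 28 large and 18 small members with no overlapping row and no copy row, 22 and 7 were lower in both batches, against 26% of all genes tested. At least 1 log2 unit lower were 19 and 6, against 6.91%. The log2 ratio of the summed TPM was -0.49 (large) with 4 clusters, and -0.34 (large) and -0.12 (small) over all cells. The median of mitochondrial translation factors was -1.80 in batch 2 alone, where the filter on low values was applied to the cells of that batch and so passed fewer of its genes.

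Among results with the same sign in both batches, directions turned for Mrpl14 (0.065), Mrps10 (0.058) and Mrps28 (0.26), CM-like minus endothelial-like, by log2 of the mean TPM (plus 1), for Mrps28 (0.15) in cells with under 20% mitochondrial transcripts, for Mrpl20 between genotypes (0.21) with 4 clusters, and for Gadd45gip1 (0.075) over all cells. Results with opposite signs in the batches are not listed, though they crossed 0 too. Between genotypes, Mrps36 ran from -0.39 to 1.76 and the median of mitochondrial translation factors from -1.80 to 0.18. The settings on overlapping rows, on 8000 to 10000 detected genes, on erythroid markers and on centring were chosen after seeing the data. The unknown number of embryos behind each genotype, the sex of the embryos and the depth per cell limit all values.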

Other observations

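In the cluster of 9 cells left unnamed, 8 cells held from 18.6 to 61.4% mitochondrial transcripts and 1 control cell of batch 1 held 4.32%. That control cell had 10851 detected genes and 13929 TPM of all members together. The other control cells of the cluster had from 291 to 5070 TPM and from 2063 to 6373 detected genes, and the 2 cKO cells had 814 and 8328 TPM and 6521 and 4462 detected genes.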
